A study of Mus musculus with 6 samples.

Results

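Glycolysis in liver was followed through 8 genes that encode forms of hexokinase, aldolase, pyruvate kinase and lactate dehydrogenase, namely Hk1, Hk2, Hk3, Aldoa, Aldoc, Pklr, Pkm and Ldha. They were chosen by name out of 56305 genes in the table, with earlier results of these data known. They are the isoenzymes that distinguish liver from other tissues, together with Ldha. All 8 passed the filter on low counts (at least 20 normalised counts in at least 3 of the 6 livers), Hk2 only through the Vps15LKO livers. RNA-Seq was done on whole liver of freely fed males aged 5 weeks, killed at ZT6 (6 h after lights on), with 1 library from each of 3 WT and 3 Vps15LKO animals. Vps15LKO mice are AlbCre+;Vps15 f/f, so Cre under the albumin promoter removes Vps15 (gene Pik3r4, the regulatory subunit of class 3 PI3K) from hepatocytes and any other cell in which that promoter has been active, while the remaining cells of the liver keep it. The control livers carry the label WT, and the sources used here do not say whether these mice had floxed alleles or Cre. The comparison asks which transcripts differ between WT and Vps15LKO livers at 1 time of day.

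Several steps of glycolysis are catalysed by isoenzymes from separate genes that tissues use in different proportions. Hexokinases 1, 2 and 3 (Hk1, Hk2, Hk3) bind glucose tightly, are inhibited by their product and serve most tissues other than the hepatocyte. Aldolase A (Aldoa) is the form of muscle and many dividing cells, and aldolase C (Aldoc) that of brain. Pklr encodes the pyruvate kinase of liver and red cells and Pkm that of muscle and most other tissues. Ldha encodes the main lactate dehydrogenase subunit of both liver and skeletal muscle, and Ldhb that of heart. Adult hepatocytes are known for a high level of Pklr, while fetal and regenerating liver express more of the other forms.

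Upstream sequences are shown for 3 of the genes because they represent a hexokinase that was scarce in WT liver, the liver pyruvate kinase, which was lower, and the lactate dehydrogenase whose direction depended on the scaling. They come from the RefSeq promoter table (GRCm38.p6), read 5′ to 3′ on the strand of the gene, and end at the annotated start or, for the second of the Pklr starts, before the first annotated exon base. Hk2 is from chr6:82774455-82774704 (minus strand), Pklr from chr3:89136373-89136571 (plus strand) and Ldha from chr7:46845554-46845803 (plus strand). Capitals mark, on either strand, the E-box CACGTG, the core ACGTG of the hypoxia-response motif, which also lies within every CACGTG, and the GC box GGGCGG.
Hk2: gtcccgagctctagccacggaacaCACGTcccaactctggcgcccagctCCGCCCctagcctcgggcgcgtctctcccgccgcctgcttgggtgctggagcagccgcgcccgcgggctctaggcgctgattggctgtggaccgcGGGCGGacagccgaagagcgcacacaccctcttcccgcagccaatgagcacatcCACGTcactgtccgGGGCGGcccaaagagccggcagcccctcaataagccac
Pklr: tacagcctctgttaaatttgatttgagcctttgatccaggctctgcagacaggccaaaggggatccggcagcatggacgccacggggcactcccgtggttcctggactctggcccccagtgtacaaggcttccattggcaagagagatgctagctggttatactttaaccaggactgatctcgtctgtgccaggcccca
Ldha: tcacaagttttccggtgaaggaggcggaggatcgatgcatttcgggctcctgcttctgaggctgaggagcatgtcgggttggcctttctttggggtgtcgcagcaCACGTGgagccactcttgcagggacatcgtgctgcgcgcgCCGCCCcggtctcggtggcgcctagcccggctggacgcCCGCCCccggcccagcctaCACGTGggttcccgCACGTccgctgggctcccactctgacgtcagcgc
The Hk2 sequence held 2 ACGTG cores and 3 GC boxes and no E-box. The stretch before the second Pklr start held none of the 3 motifs, and only these letters in this window were searched. The Ldha sequence held 2 E-boxes, 5 ACGTG matches (4 of them the strands of those E-boxes) and 2 GC boxes. Over the 15 windows of 250 bases before the annotated starts of the 8 genes, the E-box was found in 1, the ACGTG core in 6 and the GC box in 6. Counted by gene, the ACGTG core and the GC box were each found in 5 of the 8, since overlapping windows of Aldoa share sites. Of 32851 such windows in the RefSeq table, 6.02% held the E-box, 16.6% the ACGTG core and 32.7% the GC box. Which of the annotated starts were used in these livers cannot be read from counts per gene. The first bases after the Ldha start shown and after the second Pklr start were not found near the beginning of a GENCODE transcript. The only window with an E-box was that of this Ldha start.

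Values are given as normalised counts, that is, reads on a gene over the size factor of the library. Libraries were of like depth (16137093 to 18110223 reads on genes), but size factors were 0.742 to 0.801 for WT livers and 1.23 to 1.41 for Vps15LKO livers, so an equal share of reads appears as a lower normalised count in Vps15LKO. Scaling every library to its total of reads moves the median log2 difference over all genes by 0.72, and results whose direction depends on this are given in both scalings. Pik3r4 had 508, 573 and 459.7 normalised counts in WT and 341, 362 and 355 in Vps15LKO livers, with no overlap (limma log2 fold change -0.54, adjusted p = 0.00207). Scaled to total reads its log2 difference was 0.19 and it was not called. The floxed allele loses a part of the gene, and a count over the whole gene does not look inside that part, so it does not check the labels. Genes were compared by limma on log2(normalised count + 1), which understates the change of low genes, and called at a Benjamini-Hochberg adjusted p under 0.05 over 15430 genes and a fold of at least 1.2. An exact permutation test of 3 livers against 3 cannot give a p under 0.1.

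Of the 7 isoenzyme genes that reached 20 normalised counts in every WT liver, 4 (Hk1, Hk3, Aldoa, Pkm) were higher by this rule and 3 (Pklr, Aldoc, Ldha) lower in Vps15LKO livers. Over all genes tested 33.5% were called higher and 33.0% lower, and over the 13574 that reached 20 in every WT liver 26.7% and 37.6%. The isoenzyme genes were chosen with earlier results known, so setting them beside these shares is no test. Hk2, which entered the comparison through the Vps15LKO livers alone, is given by its values with no call. Of the 7 genes, Aldoc alone overlapped between genotypes, and 73.2% of all genes did not overlap, so lack of overlap is common in these livers and says little of these genes. When scaled to total reads, the same 4 genes were called higher, where 66.7% of all genes were, and of the 3 others Pklr alone was called lower, where 11.1% of all genes were. These are values of whole tissue, in which fewer cells of a type and less RNA per cell cannot be told apart.

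**Figure D1:**
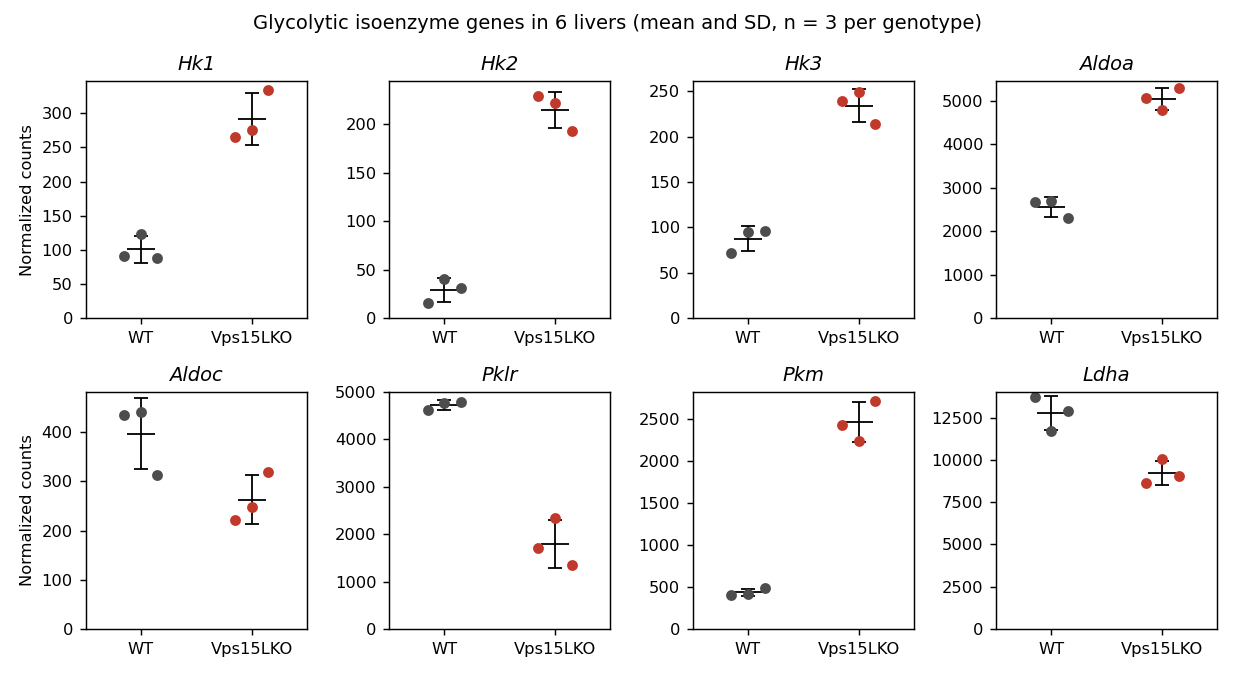
Normalised counts (vertical axes, linear, from 0) of the 8 genes in each of the 3 WT (grey) and 3 Vps15LKO (red) livers, with horizontal lines for the mean and bars for the SD. The 3 hexokinases, Aldoa and Pkm lie higher and Pklr and Ldha lower in every Vps15LKO liver, and Aldoc alone overlaps between genotypes.

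All 3 high-affinity hexokinases were scarce in WT liver, and Hk1 and Hk3 were called higher in Vps15LKO liver. Hk2 (chromosome 6, 82725025 to 82774454, minus strand), the hexokinase of muscle and fat that is found in many tumours, had 15.9, 40.0 and 31.0 normalised counts in WT and 229, 221 and 193 in Vps15LKO livers. The lowest Vps15LKO value was several times the highest WT value, and 1 WT liver was below the filter value of 20. Its mean was 29.0 ± 12.2 over the WT livers against 214 ± 18.9 over the Vps15LKO livers (SD, n = 3 each). Since Hk2 passed the filter only through the Vps15LKO livers, no fold or p is given.

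Hk1 (chromosome 10, 62268855 to 62379908, minus strand), the form of brain and red cells, had 91.5, 124 and 87.6 normalised counts in WT and 265, 276 and 335 in Vps15LKO livers. Every Vps15LKO liver lay above every WT liver, and replicate 3 was the highest. The mean rose 2.89-fold, from 101 ± 19.8 to 292 ± 37.5, with a log2 fold change of 1.53 ± 0.17 (SE, limma adjusted p = 6.95e-05). Hk3 (chromosome 13, 55005985 to 55021385, minus strand), a form abundant in myeloid blood cells, had 71.6, 94.9 and 95.7 normalised counts in WT and 239.8, 249 and 214 in Vps15LKO livers. Again the groups did not overlap, and the spread within each was small beside the distance between them. The mean rose 2.68-fold, from 87.4 ± 13.7 to 234 ± 18.3, with a log2 fold change of 1.42 ± 0.15 (SE, limma adjusted p = 6.64e-05).

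Hkdc1, a hexokinase-like gene of uncertain role, was close to the limit of detection in WT, with 5.30, 4.996 and 2.70 normalised counts, which came from 4 reads or fewer per library. It had 158, 124 and 131 in Vps15LKO livers, and since it entered the comparison through these livers alone no fold or p is given. With all exons as the length, its mean level per kilobase in Vps15LKO livers, 26.8 normalised counts, was below those of Hk1, Hk2 and Hk3. With the longest transcript as the length, Hkdc1 and Hk2 were close and neither was higher in every Vps15LKO liver.

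Of the aldolases, Aldoa was higher, whereas Aldoc was called lower but not when libraries were scaled to total reads. Aldoa (chromosome 7, 126795234 to 126800751, minus strand) had 2670.5, 2701 and 2301 normalised counts in WT and 5076, 4791 and 5298 in Vps15LKO livers. All 3 Vps15LKO livers lay far above the WT range and close to each other. The mean rose 1.98-fold, from 2557 ± 222 to 5055 ± 254, with a log2 fold change of 0.99 ± 0.10 (SE, limma adjusted p = 5.92e-05).

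Aldoc (chromosome 11, 78322968 to 78327781, plus strand) had 436, 442 and 314 normalised counts in WT and 222, 247 and 319 in Vps15LKO livers. The groups overlapped, since the highest Vps15LKO liver exceeded the lowest WT liver. Its log2 fold change was -0.59 ± 0.18 (SE, limma adjusted p = 0.0162), but it was 0.13 and not called when libraries were scaled to total reads, and the call was lost without WT replicate 1 (-0.52), WT replicate 2 (-0.51) or Vps15LKO replicate 1 (-0.48). Aldoc had the highest adjusted p of the 7 genes with a call.

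The pair of pyruvate kinase genes changed in opposite directions. Pkm (chromosome 9, 59656368 to 59679375, plus strand) had 408, 417 and 485 normalised counts in WT and 2432, 2237 and 2707 in Vps15LKO livers. The groups were far apart and each was tight. Its mean rose 5.63-fold, from 437 ± 42.1 to 2459 ± 237, and its adjusted p of 8.85e-07 in limma (log2 fold change 2.49 ± 0.11, SE) was the lowest of the 7 genes with a call. Pkm makes different enzymes by alternative splicing, a muscle form and a form of fetal and dividing cells, which counts per gene do not separate.

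Pklr (chromosome 3, 89136142 to 89146784, plus strand) had 4610.3, 4775 and 4792 normalised counts in WT and 1711, 2341 and 1339.6 in Vps15LKO livers. The WT livers were almost equal, whereas the Vps15LKO livers were all lower and spread more widely. The mean was 2.63-fold lower, at 1797 ± 506 against 4726 ± 100.5, with a log2 fold change of -1.43 ± 0.18 (SE, limma adjusted p = 0.000158). It was also called lower when scaled to total reads (-0.71, adjusted p = 0.00147).

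Ldha (chromosome 7, 46841475 to 46855627, plus strand) was the most abundant of the 8 genes. It had 13716, 11724 and 12869 normalised counts in WT and 8641, 10024 and 9017 in Vps15LKO livers. The groups did not overlap, but the gap between them was small relative to the level. Its log2 fold change was -0.47 ± 0.13 (SE, limma adjusted p = 0.0117), and without Vps15LKO replicate 1 (-0.42) it was no longer called. The direction turned when libraries were scaled to total reads (0.26, adjusted p = 0.0588) and under quantile normalisation (0.61, called higher), so the data give no direction for Ldha that holds across scalings. Ldhb, which encodes the heart subunit, had 41.1, 33.7 and 44.5 normalised counts in WT and 84.8, 94.0 and 144 in Vps15LKO livers, and its groups did not overlap (limma log2 fold change 1.38 ± 0.23, adjusted p = 0.000781).

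The ratio of an isoenzyme to its partner within a library does not depend on the size factor. It was taken on reads per kilobase of exon and compared by an exact two-sided permutation test, in which the ratios Pkm to Pklr and Ldha to Ldhb each reached the smallest p that 3 livers against 3 allow (0.1, and 0.1 after Benjamini-Hochberg adjustment over the 7 ratios computed). Neither overlapped between genotypes. For pyruvate kinase, the ratio of Pkm to Pklr was 0.0573, 0.0565 and 0.0655 in WT livers and 0.920, 0.618 and 1.31 in Vps15LKO livers. With all exons as the length, Pkm thus exceeded Pklr in 1 Vps15LKO liver, while in WT it was a small fraction. With the longest transcript as the length, Pkm was 53.3% to 70.7% of the step in Vps15LKO livers. The log2 ratio rose by 3.92 ± 0.32 (SE), which is 15.2-fold.

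Ldha per Ldhb went from 158, 165 and 137 in WT to 48.4, 50.6 and 29.8 in Vps15LKO livers, a 3.66-fold lower ratio, with Ldha in large excess in all 6 livers.

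As shares of the level per kilobase at its step, Pkm went from between 5.35% and 6.15% of pyruvate kinase in WT to between 38.2% and 56.7% in Vps15LKO livers. With the length of the longest transcript in place of all exons, the share ran from 9.44% to 10.8% for WT and from 53.3% to 70.7% for Vps15LKO livers, so which gene was ahead in Vps15LKO liver depends on the length used. Ldha held 99.3% to 99.4% of its step in WT and 96.8% to 98.1% in Vps15LKO livers.

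**Figure D2:**
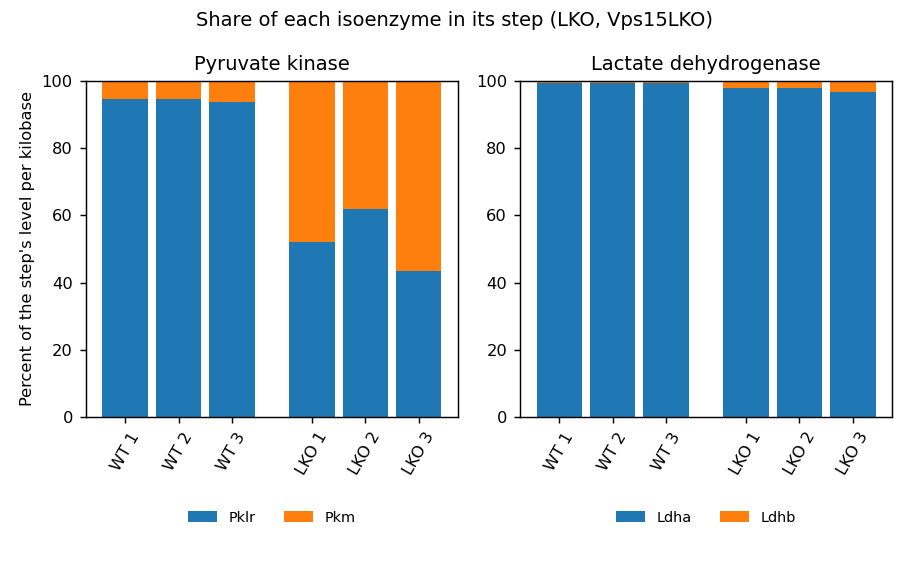
Percent of the summed level per kilobase of a step (vertical axes, 0 to 100) held by each isoenzyme of pyruvate kinase and of lactate dehydrogenase, in stacked bars for the 3 WT and 3 Vps15LKO (LKO) livers. Pkm reaches between 38.2% and 56.7% of pyruvate kinase in Vps15LKO, and Ldha holds nearly all of the other step throughout.

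The isoenzymes of these steps were also summed per kilobase, which shows the step as a whole. For pyruvate kinase the sum was 1.48-fold lower in normalised counts (1548 ± 37.1 against 1047 ± 111) but 1.11-fold higher in RPKM (reads per kilobase scaled to total reads), so its direction depends on the scaling, as does that of lactate dehydrogenase (1.36-fold lower and 1.22-fold higher). No test was made on these sums.

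Compared per kilobase of exon, the genes took a different order in the genotypes. In WT livers Ldha led with 3858 ± 302 normalised counts per kilobase, followed by Pklr (1460.4 ± 31.0) and Aldoa (879 ± 76.4). Aldoc (122 ± 22.2) and Pkm (87.4 ± 8.41) came next with overlapping ranges, and Hk3 (23.7 ± 3.72), Hk1 (11.8 ± 2.32) and Hk2 (4.85 ± 2.04) were last. Except for Aldoc and Pkm, no neighbours in this order overlapped. With the longest transcript in place of all exons, Hk3 and Hk1 also overlapped in WT. In Vps15LKO livers Ldha still led (2788 ± 216), but Aldoa (1737 ± 87.4) came second, and Pklr (555 ± 156) and Pkm (492 ± 47.3) overlapped. Aldoc (80.5 ± 15.4) and Hk3 (63.6 ± 4.96) followed, and Hk2 (35.9 ± 3.17) and Hk1 (34.2 ± 4.39) overlapped at the end. Aldoa thus moved above Pklr and Pkm above Aldoc. The last places depend on the length used, since with the longest transcript Hk1 lay above Hk2 in every Vps15LKO liver.

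Some of these genes share exons or sequence with others, and whether the counting used strand or reads with several matches is not stated. Pkm shares 767 of its 5001 exon bases with Gm49759, an unverified gene on the same strand, which had 50 to 56 reads in WT libraries and 453 to 723 in Vps15LKO libraries. It was thus higher in Vps15LKO as Pkm was, and reads of the shared bases cannot be assigned to either gene. Pklr shares 711 of its 3236 exon bases with Hcn3 on the opposite strand, an ion channel gene that had 1291 to 1366 reads in WT libraries and 650 to 1008 in Vps15LKO libraries. Overlaps of Hk3, Aldoa and Hk1 with other genes were of 157 bases or fewer. Processed copies in the genome (at least 90% identical over at least 300 bases) were found for Ldha, Pkm and Aldoa, and their own reads came to at most 0.773%, 2.92% and 0.348% of those of the gene in any library.

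Among the 27 other genes of glycolysis on a fixed list, 22 were tested, and 20 of these reached 20 normalised counts in every WT liver. Of the 20, 3 were higher, 7 lower and 10 not called, with a median log2 difference of -0.23 against -0.13 over all genes that did so. Over all those genes 26.7% were called higher and 37.6% lower. When scaled to total reads, 11 of the 20 were higher and 3 lower, against 63% and 12.6% over all those genes. The medians were then 0.50 and 0.59. The other 2, Hkdc1 and Pfkfb4, passed the filter only through the Vps15LKO livers and are given without a fold. Pfkfb4, which makes a bifunctional regulator of phosphofructokinase, had 10.6, 23.7 and 14.8 normalised counts in WT and 144, 144 and 158 in Vps15LKO livers. The genes called higher were Ldhb, given above, Pfkp and Gpi1, with log2 fold changes of 1.17 for Pfkp and 0.43 for Gpi1. Pfkp is the platelet form of phosphofructokinase and Gpi1 is glucose phosphate isomerase. Falls were seen in Pfkfb1, the liver form of that regulator (-1.24), and in Pfkm, the muscle phosphofructokinase (-0.88), of which Pfkfb1 alone was called lower in the scaling to total reads. Pfkl, the liver phosphofructokinase, had a log2 difference of 0.02 ± 0.09 (SE) and was not called, but was called higher when scaled to total reads (0.74).

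**Figure D3:**
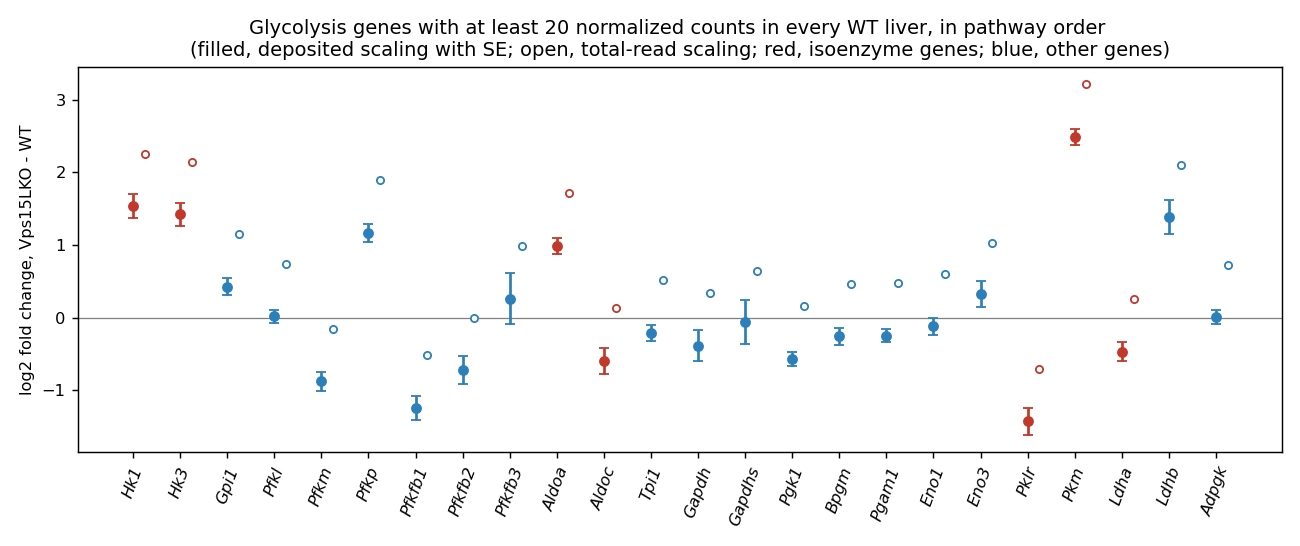
Log2 fold change, Vps15LKO minus WT (vertical axis), of isoenzyme genes and other glycolysis genes with at least 20 normalised counts in every WT liver, in pathway order, with filled points and SE bars for the deposited scaling and open points for total-read scaling, red for the isoenzyme genes and blue for the others. Pklr lies below 0 in both scalings, Hk1, Hk3, Aldoa, Pkm and Ldhb above 0 in both, and Aldoc and Ldha cross 0 between them.

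Of the transporters of glucose and lactate, 9 were tested and 7 reached 20 normalised counts in every WT liver, of which 1 was higher and 3 lower (3 and 2 scaled to total reads). These are 14.3% and 42.9%, against 26.7% and 37.6% over all genes at that level. Scaled to total reads they are 42.9% and 28.6%, against 63% and 12.6%. Slc2a1, the glucose transporter of red cells and dividing cells, rose by 1.11 on the log2 scale. Slc2a9, Slc2a2 (the glucose transporter of hepatocytes) and Slc2a8 fell by 1.74, 1.72 and 0.83. Slc16a3, a lactate exporter of glycolytic tissues, and Slc2a3, a high-affinity glucose transporter, passed the filter only through the Vps15LKO livers and are given without a fold. Slc16a3 had 7.96, 17.5 and 10.8 normalised counts in WT and 76.4, 87.5 and 112 in Vps15LKO livers. Slc2a3 had 2.65, 6.25 and 6.74 in WT and 37.4, 29.98 and 37.5 in Vps15LKO livers.

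Of 15 genes for the fate of pyruvate, 14 reached 20 normalised counts in every WT liver, of which 2 were higher and 12 lower, with a median log2 difference of -0.92. The higher ones were the pyruvate dehydrogenase kinase Pdk4 (2.52) and the phosphatase Pdp1 (1.997). Another such kinase gene, Pdk3, passed the filter only through the Vps15LKO livers, with 13.3, 7.49 and 9.44 normalised counts in WT and 70.3, 81.8 and 103 in Vps15LKO livers. The largest falls were in Ldhd, a D-lactate dehydrogenase, Pdk1 and Pdp2, with log2 fold changes of -2.02, -1.96 and -1.79. Scaled to total reads, 2 of the 14 were higher and 6 lower. Over all genes at 20 in every WT liver, 26.7% were called higher and 37.6% lower, or 63% and 12.6% scaled to total reads.

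Of 9 listed regulators of these genes, 4 were higher and 3 lower (6 and 1 scaled to total reads). All 9 reached 20 normalised counts in every WT liver. Over all genes that did so, 26.7% were higher and 37.6% lower (63% and 12.6% scaled to total reads). Myc, a transcription factor known to act on Ldha and on the splicing factors of Pkm, had 268, 96.2 and 67.4 normalised counts in WT and 1124, 912 and 934 in Vps15LKO livers, with a log2 fold change of 3.02 ± 0.42 (SE, limma adjusted p = 0.000278). Of the 4 splicing factor genes listed, Hnrnpa1, Srsf3 and Ptbp1 were called higher (1.05, 0.41 and 0.29), and Hnrnpa2b1 had a log2 difference of -0.23 that was not called but turned to 0.50, called higher, when scaled to total reads. Mlxipl, which encodes the carbohydrate-response factor known to act on Pklr, had 5293, 5091 and 4489 normalised counts in WT and 1116, 1389 and 895 in Vps15LKO livers (log2 fold change -2.15 ± 0.16, limma adjusted p = 9.15e-06). Its partner Mlx (-0.77) and Epas1, a hypoxia-inducible factor (-0.64), were also lower, and in the scaling to total reads neither was called (-0.05 and 0.09). Hif1a had a log2 difference of 0.19 ± 0.09 (limma adjusted p = 0.0874), and was called higher when scaled to total reads (0.91). Whether any of these had a part in the isoenzyme values was not tested.

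Markers of several cell types moved with the genotype beside the isoenzymes. For comparison, 26.7% of all genes at 20 normalised counts in every WT liver were called higher and 37.6% lower. Of 13 hepatocyte genes 11 were lower and none higher, with a median log2 difference of -1.99. The 2 not called were Alb, which was 2.76-fold lower with no overlap, and Hpx, which was higher in every Vps15LKO liver and called higher when scaled to total reads (1.21). Of 14 macrophage genes 12 reached 20 in every WT liver, of which 9 were higher and 1 lower (Cd163), and the sum of the 14 went from between 6927 and 8659 normalised counts in WT to between 28340.5 and 29648 in Vps15LKO livers. Neutrophil markers were few, with a sum of 72.4 to 83.5 in WT and 574 to 739.8 in Vps15LKO livers. Most of the WT sum was Csf3r, without which it was 12.1 to 23.9 in WT and 317 to 492 in Vps15LKO livers. Of the 10, 5 were tested, 4 of which passed the filter only through the Vps15LKO livers, so no count of calls is given for them, and Ly6g, Mpo and Ngp were at 0 in WT. All 13 stellate cell and fibroblast genes were higher (sum between 8109.5 and 8647 in WT, 34511 and 40334 in Vps15LKO), as were the 4 of 10 cholangiocyte genes that reached 20 in every WT liver (sum of all 10, 1284 to 1456 against 13206 to 24781), while 5 others passed only through the Vps15LKO livers. Spp1, which encodes the secreted protein osteopontin, carried most of that sum in Vps15LKO livers (13401, 10402 and 20496 normalised counts, against 562, 493 and 599 in WT), and without it the sum was 791 to 857 in WT and 2804 to 4285 in Vps15LKO livers.

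Of 12 proliferation genes, the 7 that reached 20 in every WT liver were higher and 5 passed only through the Vps15LKO livers, and the sum of the 12 went from between 742 and 1099 to between 4567 and 4974 normalised counts. Over all genes at 20 in every WT liver, 26.7% were higher and 37.6% lower, or 63% and 12.6% scaled to total reads. Of 7 lymphocyte genes tested, 2 reached 20 in every WT liver, of which 1 was higher (sum of the list 139.9 to 169 in WT, 344 to 403 in Vps15LKO). Endothelial genes, with 5 of 12 higher and 4 lower (9 and 0 scaled to total reads), had overlapping sums in normalised counts (10558 to 11714 and 10121 to 11819.7), but not in RPM, reads scaled to the library's total (458 to 518 in WT and 786 to 806 in Vps15LKO). Erythroid genes, of interest because red cells use Pklr and Hk1, likewise had overlapping sums in normalised counts, 7651 to 10101 in WT and 6751 to 9438 in Vps15LKO livers, but not in RPM, where they were 324 to 464 and 474 to 739. Of the 6 that reached 20 in every WT liver, none was higher and 2 were lower (Alas2 and Klf1), or 4 and 2 scaled to total reads, the 4 globin genes were not called in normalised counts, and Epb42 was at 0 in WT. Slc4a1, the anion exchanger of red cells, passed the filter only through the Vps15LKO livers, with 1.33, 4.996 and 10.8 normalised counts in WT and 36.7, 46.2 and 52.3 in Vps15LKO livers. The part of these cell types in the values of Hk1, Hk2, Hk3, Aldoa and Pkm was not tested, and in whole liver the cell of origin of a transcript is not known.

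The gene whose profile over the 6 livers was closest to that of each isoenzyme gene was found by the root mean square distance of log2 values centred on their mean, over 10398 protein-coding genes with a mean of at least 100 normalised counts. It was Plk2 for Hk1 (0.065), Abcc1 for Hk2 (0.16) and Myo9b for Hk3 (0.078). For Pkm it was Tnfaip3 (0.052). Rnf135 was closest to Aldoa (0.040), Tead3 to Aldoc (0.10) and Rnasek to Ldha (0.026). Of these 7, the neighbour of Hk2 was the least close. These distances describe 6 livers of 2 genotypes and carry no test.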

How the data were processed

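PolyA-enriched RNA from 3 WT and 3 Vps15LKO livers was sequenced (DNBSEQ). Per the labels and methods, the authors cleaned the reads with SOAPnuke, aligned to GRCm38 by HISAT2, summarised by featureCounts and scaled by DESeq2. Versions and the strand and multi-mapping settings are not given in the sources used here. The deposited signal is each gene's reads over the library's DESeq2 size factor. In each library 100% of the lower values were whole multiples of 1 step (within 0.1), and this step was used to recover whole reads for all genes. High values, such as those of Ldha, were not checked in this way.

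Genes with at least 20 normalised counts in at least 3 of 6 livers were kept. log2(normalised count + 1) was compared with limma 3.58.1 (lmFit, eBayes with a trend, R 4.3.3) with Benjamini-Hochberg adjustment. The fit was first run on simulated counts with known size factors and few changed genes, which does not test the choice of scaling. Isoenzyme ratios were compared by exact permutation in Python 3.11.15 with scipy 1.17.1. Coordinates and exon lengths come from GENCODE M21, which named 55227 genes. The Aldoa symbol has a second Ensembl locus with 0 to 6 reads per library, not used. Groups come from the sample labels. Replicates are different mice, and no pair of libraries agreed within counting noise.

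The alternatives were other pseudocounts, filters and scalings, limma without a trend, limma voom, edgeR 4.0.16 and DESeq2 1.42.0 on recovered reads, each replicate left out, and a replicate block. The members and lists were chosen with earlier results of these data known. Of the lists, the genes named are those at the step of a member and otherwise up to 3 largest rises and 3 largest falls among called genes, except that some genes and the results that need them are not reported here. Cd163, Spp1, Slc4a1, Alas2, Klf1, Ly6g, Mpo, Ngp and Epb42, the exceptions of their lists, Hif1a and Pfkl were named after their values were seen, as were Ptbp1, Hnrnpa2b1, Alb and Hpx. Ahsp, of the erythroid list, had no identifier.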

Additional observations from a re-analysis of the deposited data

How the results depend on the processing

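Hk1, Hk3, Aldoa, Pkm and Pklr kept their direction and their call under every alternative tried. Hk2 is not counted, since it passed the filter only through the Vps15LKO livers. The log2 fold changes of the 5 ranged from 1.26 to 2.25, 1.09 to 2.14, 0.89 to 1.71, 2.39 to 3.22 and -1.64 to -0.71. Scaling to total reads gave 10299 genes called higher and 1712 lower, 1 member lower, 13 other glycolysis genes higher and 3 lower (11 and 3 of those at 20 in every WT liver), and turned Aldoc (0.13) and Ldha (0.26). Quantile normalisation also turned Ldha (0.61). With at least 20 in every liver, 3 other glycolysis genes were called higher. Without 1 replicate at a time, between 1 and 3 members were called lower, Aldoc ranged from -0.76 to -0.48 and Ldha from -0.53 to -0.42. The cause of these changes was not tested. On the recovered reads edgeR called 5170 genes higher and 5150 lower and DESeq2 5024 and 5004, and neither changed the call of a member. The log2 ratios of isoenzymes kept their sign under the longest transcript as length, 1 read added and each replicate left out, with Pkm to Pklr between 3.66 and 4.201.

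Same-numbered livers did not deviate together (correlations -0.01, -0.01 and 0.05), so the replicate number was not taken to pair them. With it as a block, 5065 genes were called higher and 4983 lower, and no call of a member at 20 in every WT liver changed. With 3 livers a group and no time point other than ZT6, an effect smaller than the spread between mice, or one that depends on the time of day, would not be seen, and the abundance of Hk2 and Hkdc1 in WT rests on few reads.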

Other observations

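The Vps15LKO livers differed among themselves at the steps of these isoenzymes. Replicate 2 had the highest Pklr (2341 normalised counts against 1711 and 1339.6), and the lowest Pkm (2237 against 2432 and 2707) and Aldoa (4791 against 5076 and 5298). Replicate 3 had the lowest Pklr and the highest Pkm, Aldoa, Hk1 and Ldhb. Other members did not share this order, since Hk2 and Hk3 were lowest in replicate 3 and Ldha was highest in replicate 2. Of the listed markers, the cholangiocyte genes Epcam (257, 187 and 381 in replicates 1 to 3) and Sox9 (863, 644 and 1246) were also lowest in replicate 2 and highest in replicate 3. The hepatocyte genes G6pc (479, 1255 and 142) and Tdo2 (5074, 6490.05 and 3212) had the opposite order. These genes were picked after the values were seen, 3 livers allow no test of such an order, and what the livers share was not tested.

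The enolase Eno2 and the glucose transporter Slc2a4, typical of neurons and of muscle and fat, did not pass the filter on low counts, and their normalised counts were nonetheless higher in every Vps15LKO liver (Eno2 0, 1.25 and 2.70 in WT and 9.16, 16.2 and 20.51 in Vps15LKO, Slc2a4 5.30, 2.50 and 2.70 in WT and 12.2, 8.91 and 9.19 in Vps15LKO). These rest on few reads, were picked after the values were seen and were not tested. Pgam2, the muscle phosphoglycerate mutase, overlapped between genotypes (4.996 to 12.1 and 9.72 to 9.93), as did Eno4, Ldhc and Pgk2 at 5 normalised counts or fewer.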
